A study of Mus musculus with 26 samples.

Results

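The nuclear-encoded subunits of the mitochondrial respiratory chain and of ATP synthase were followed across 26 RNA-seq libraries of mouse embryonic stem cells. Members were every gene symbol of the count table that begins as those of complex I (Nduf with a letter a, b, c, s or v and a number), complex II (Sdha to Sdhd), complex III (Uqcr), complex IV (Cox4i1 and Cox5 to Cox8) or ATP synthase (Atp5). This gave 83 of 25239 genes, with 36 in complex I, 4 in complex II, 8 in complex III, 18 in complex IV and 17 in ATP synthase. All 83 were also listed in the TPM table of untreated cells, 77 in the activin A table and 79 in each of the other treated tables. Atp5pb, Cox6a2, Cox7c-ps1 and Cox8b were in none of the treated tables, and Cox7a1 and Ndufs5 were missing from the activin A table. One member, Cox7c-ps1, carries the symbol of a pseudogene.

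The cells carried a knockout of Hmces (HMCES-KO) or were wild type (WT), and HMCES is a protein that binds abasic sites in DNA. The count table held 2 libraries of each of the knockout lines, called KO7 and KO8 there, and 2 WT libraries, all untreated. A TPM table held 2 further HMCES-KO and 2 further WT libraries, also untreated. Each of 4 TPM tables held 1 library of HMCES-KO1, 1 of HMCES-KO2 and 2 of WT after 2 h with activin A at 50 ng/ml, SB431542 at 10 µM, BMP4 at 10 ng/ml or LDN193189 at 50 nM. Activin A and BMP4 are ligands of the TGF-beta family, SB431542 inhibits the receptors of activin, and LDN193189 those of BMP. The labels give C57BL/6 as the strain of all cells. In the TPM table of untreated cells, however, WT columns are named CCE, and the labels do not say what that name stands for. The HMCES-KO columns of that table are named K81 and K82, and whether these are libraries of KO8 is not stated. The labels name the lines HMCES-KO1 and HMCES-KO2; which of them is KO7 or KO8, and which line the untreated TPM table holds, is not stated. Each line may be a single clone. No label ties the libraries of a group to different cultures, and the p-values therefore reflect variation among libraries that may be technical.

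Complex I passes electrons from NADH to quinone, complex II from succinate to quinone, complex III from quinol to cytochrome c and complex IV from cytochrome c to oxygen. The proton gradient made by complexes I, III and IV drives ATP synthase. A few subunits of these complexes are encoded by mitochondrial DNA (not analysed here), and the rest are nuclear genes, many of them short and with processed pseudogene copies. Embryonic stem cells take much of their ATP from glycolysis and still respire.

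Libraries of the count table held 9571113 to 13512922 counted read pairs, and the reads recovered from TPM summed to 8524110 to 10037099 in the untreated table and 4073353 to 5462434 in the treated tables. Hmces itself was at 24.3% to 37.8% of the WT mean in the HMCES-KO libraries of the count table and at 21.2% to 22.1% in those without treatment listed as TPM. In the treated tables it was at 51.7% to 64.1% in HMCES-KO1 and at 25.03% to 34.0% in HMCES-KO2. Which part of the gene was deleted is not stated, so this level does not by itself check the knockout. All 10 embryonic stem cell markers listed reached 1 TPM in every table. The genes counted were short: the members had a median exon length of 729 bases, against 3066 for all genes tested in the counts, and 55 of 83 were under 1000 bases.

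The promoters of this gene family are known for sites of nuclear respiratory factor 1 (NRF1) and of the ETS factor GABP. RefSeq promoters (GRCm38.p6, 250 bases before to 50 after the start) were matched for 68 members and 27025 genes in all and searched on both strands. The NRF1-type letters, GCGC and TGCGC with any 1 base between them, were in 23.5% of the members' promoters, against 4.78% of all promoters. The stricter form, with A as that base, was in 7.35%, against 0.977%, and it is contained in the looser form. The ETS-type letters CCGGAAG were in 23.5%, against 9.12%, and the YY1-type letters AAGATGGCG in 8.82%, against 1.49%. The TATA letters TATAAA were in 11.8%, against 14.2%. Such a match is a description of letters and not a bound site. The 3 promoters below belong to 3 of the 5 genes that were called lower in HMCES-KO in all 4 treated tables: Cox8a (chr19:7217567-7217866, minus strand), Cox6a1 (chr5:115348909-115349208, minus strand) and Atp5h (chr11:115419870-115420169, minus strand). Capitals mark matches to the NRF1-type, ETS-type or YY1-type letters on either strand.
Cox8a: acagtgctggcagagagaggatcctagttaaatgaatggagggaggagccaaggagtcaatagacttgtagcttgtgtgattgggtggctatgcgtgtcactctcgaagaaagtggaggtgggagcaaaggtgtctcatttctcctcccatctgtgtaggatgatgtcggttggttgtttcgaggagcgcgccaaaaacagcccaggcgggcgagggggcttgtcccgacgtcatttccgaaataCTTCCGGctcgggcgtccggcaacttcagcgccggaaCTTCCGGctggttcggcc
Cox6a1: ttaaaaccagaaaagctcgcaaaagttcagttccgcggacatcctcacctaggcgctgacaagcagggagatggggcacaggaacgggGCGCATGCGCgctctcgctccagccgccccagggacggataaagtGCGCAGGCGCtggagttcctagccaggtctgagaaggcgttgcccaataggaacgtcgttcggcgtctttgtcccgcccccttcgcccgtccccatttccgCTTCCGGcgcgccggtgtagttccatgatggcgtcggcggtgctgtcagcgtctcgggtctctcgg
Atp5h: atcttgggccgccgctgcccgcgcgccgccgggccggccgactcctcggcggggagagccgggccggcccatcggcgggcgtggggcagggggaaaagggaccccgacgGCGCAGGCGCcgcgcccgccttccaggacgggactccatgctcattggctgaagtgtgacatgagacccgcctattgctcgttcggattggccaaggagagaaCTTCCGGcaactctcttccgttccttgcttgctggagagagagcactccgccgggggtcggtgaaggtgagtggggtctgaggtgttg
Cox8a held 2 ETS-type matches, Cox6a1 held 2 NRF1-type and 1 ETS-type match, and Atp5h held 1 of each. The promoter of Uqcr10, another gene lower in all 4 tables, held none of these letters. That of Ndufa9, the remaining gene, is not shown, nor are those of genes that rose. Whether these letters go with a change in HMCES-KO was not tested.

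Levels per length spanned a wide range among genes whose proteins are built into the same complexes. In the WT libraries of the count table, TPM computed from the counts and the gene lengths given there had a median of 94.3 over the 83 members, against 26.0 over all genes tested. The beta subunit of ATP synthase, Atp5b, was highest at 3094 TPM, followed by the alpha subunit Atp5a1 at 1468, the largest nuclear complex IV subunit Cox4i1 at 1173 and Cox8a at 1116. At the low end stood the ATP synthase f subunit Atp5j2 at 3.22 TPM and the complex III subunit Uqcrb at 3.16 TPM. The complex I subunit Ndufs5 had no read in any of the 10 untreated libraries.

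The low members were often those with near copies elsewhere in the genome. Each member's mRNA was compared with the transcripts of all other genes, and stretches of at least 75 bases at 97% identity or more were counted as copied. For Ndufs3, an iron-sulfur protein of complex I, 83.8% of the mRNA was copied, and its WT level was 8.22 TPM. For Atp5o, the stalk subunit OSCP, 80.3% was copied at 5.85 TPM, and for Uqcrb 62.8%. The exons of Ndufs5 overlapped those of Ndufs5-ps over 95.1% of their length on the same strand. Among 19 members with at least 25% of the mRNA copied, leaving out the tissue-restricted isoforms, the median WT level was 15.7 TPM and 11 were under 20 TPM. Among 7 with some copy, but under 25% of the mRNA, the median was 99.05 TPM and none was under 20 TPM. Among 44 with no copy and a longest exon of at least 160 bases the median was 197 TPM and 4 were under 20 TPM. Another 4 members without a copy had a longest exon under 160 bases and a median of 14.4 TPM, and 3 of them were under 20 TPM. Levels of these genes are uncertain. The count command in the file header sets no option for reads that overlap several genes, and the rule behind the alignments named high quality there is not stated; the part of copies in the levels was not tested.

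**Figure D1:**
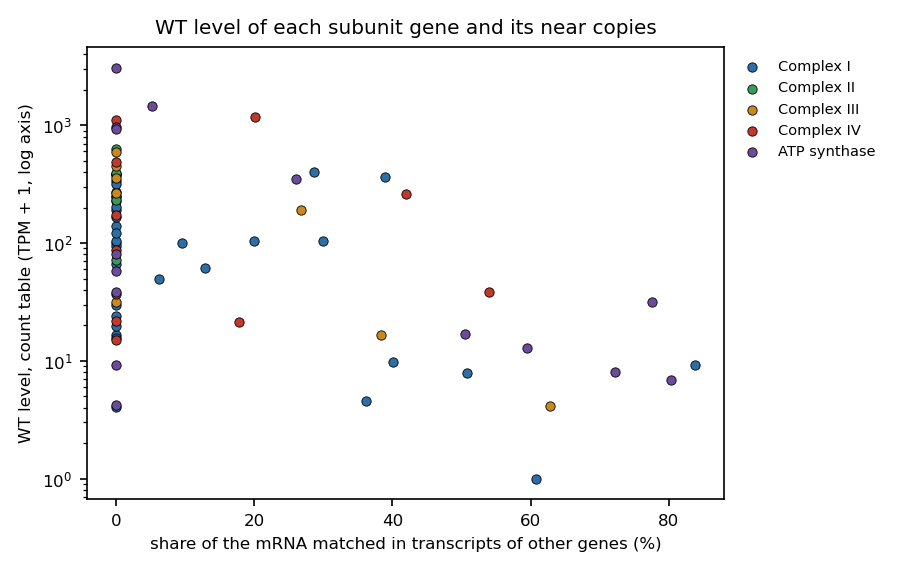
WT level of each member in the count table (mean TPM of 2 libraries plus 1, log axis) against the share of its mRNA matched in transcripts of other genes (%), coloured by complex, without the tissue-restricted isoforms. Members with over 40% of the mRNA copied sit mostly under 50 TPM, while members with no copy run from 3.04 to 3094 TPM.

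In untreated cells of the count table, a minority of subunit genes moved, and most of these were lower in HMCES-KO. Of 75 members tested for the mean of KO7 and KO8 against WT, 2 rose and 18 fell with edgeR's quasi-likelihood test (adjusted p under 0.05), which is 26.7% of them, against 40.6% of all 13475 genes tested; 20.8% of all genes were called lower. The median log2 fold change of the members was -0.12, against -0.01 over all genes, and it was -0.05 without WT library 2 and -0.08 without KO7 library 2. All genes under 1000 bases had a median of -0.08 in the same fit. By complex, 7 of 35 tested members of complex I fell and none rose, in complex II 1 rose and 1 fell of 4, in complex III 1 rose and 2 fell of 7, in complex IV 5 of 13 fell, and in ATP synthase 3 of 16 fell.

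The clearest falls were in complex IV. Cox6b1, a small subunit facing the intermembrane space, had 62.9 and 52.2 CPM (counts per 1000000 counted read pairs) in KO7 and 53.9 and 55.8 CPM in KO8, against 85.0 and 84.7 CPM in WT. These values rest on 516 to 850 reads in HMCES-KO and on 1012 and 848 reads in WT, and the groups did not overlap. The log2 fold change was -0.53 ± 0.07 (SE, adjusted p = 7.6e-06, edgeR). Cox6b2, its isoform best known from testis, had 18.2, 16.9, 17.9 and 19.1 CPM in the 4 HMCES-KO libraries, against 30.4 and 28.4 CPM in WT, a log2 fold change of -0.65 ± 0.10 (adjusted p = 2.5e-05). Both isoforms of this subunit were thus lower in every HMCES-KO library than in every WT library. Cox7a2, the widely expressed form of subunit VIIa, had 20.7 and 17.0 CPM in KO7 and 15.1 and 13.6 CPM in KO8, against 25.7 and 22.6 CPM in WT (log2 fold change -0.50 ± 0.11, adjusted p = 0.0014). Cox8a had 182, 176, 178 and 178 CPM in HMCES-KO, against 225 and 223 CPM in WT (-0.27 ± 0.05, adjusted p = 0.00016).

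Of complex I, the called genes were all accessory subunits. Ndufa3, a subunit of the membrane arm, had 32.2, 31.3, 35.2 and 35.9 CPM in the 4 HMCES-KO libraries, against 48.2 and 49.8 CPM in WT, and fell by 0.48 ± 0.08 on the log2 scale (adjusted p = 4.8e-05, edgeR). Ndufv3, a small subunit bound to the flavoprotein part, fell by 0.38 ± 0.07 (adjusted p = 0.00012). Ndufa5 fell by 0.36 ± 0.13, and its call (adjusted p = 0.029) was lost without WT library 1 or 2, KO7 library 2 or KO8 library 1 (adjusted p = 0.0594 to 0.102). Of the 7 nuclear core subunits, which form the catalytic arm, none was called, against 7 of 28 accessory subunits. This division was made after the values were seen.

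In complex II the subunits moved apart. Sdha, the flavoprotein that oxidises succinate, had 285 and 275 CPM in KO7 and 247 in both KO8 libraries, against 246 and 239 CPM in WT (log2 fold change 0.18 ± 0.05, adjusted p = 0.0051, edgeR). Sdhc, 1 of the membrane anchors, had 246 and 233 CPM in KO7 and 213 and 218 CPM in KO8, against 289 and 259 CPM in WT (-0.21 ± 0.05, adjusted p = 0.0020). Sdhb, the iron-sulfur subunit, changed by -0.08 ± 0.09 and Sdhd, the other anchor, by 0.10 ± 0.05, and neither passed the test (adjusted p = 0.54 and 0.10). No common shift of the complex was seen, and the log2 fold changes of the 4 genes ran from -0.21 to 0.18.

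Of complex III, Uqcr10 and Uqcrq, small subunits beside the cytochromes, fell by 0.30 ± 0.08 and 0.26 ± 0.05 on the log2 scale (adjusted p = 0.0052 and 0.00024, edgeR). The call of Uqcr10 was lost without WT library 2 (adjusted p = 0.0700). Of ATP synthase, the epsilon subunit Atp5e had 47, 31, 31 and 37 reads in HMCES-KO, against 69 and 55 reads in WT, which is 3.12 to 3.56 CPM against 5.80 and 5.49 CPM. The log2 fold change was -0.69 ± 0.20 (adjusted p = 0.011), and the call was lost without WT library 1 (adjusted p = 0.0579). The delta subunit Atp5d fell by 0.20 ± 0.05 (adjusted p = 0.0036). The most abundant subunits, Atp5b and Atp5a1, changed by -0.02 ± 0.04 and -0.03 ± 0.04 and did not pass the test (adjusted p = 0.77 and 0.55).

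With all 4 HMCES-KO libraries taken as 1 group, 7 members were called instead of 20, with 11.5% of all genes called in that fit, and Sdha, Sdhc, Cox7a2, Uqcr10, Uqcrq, Atp5d, Atp5e and Ndufa5 were among those lost (adjusted p = 0.0528 to 0.196). With KO7 and KO8 as separate groups, 27.5% of genes under 1000 bases were called, close to the 26.7% of the members.

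**Figure D2:**
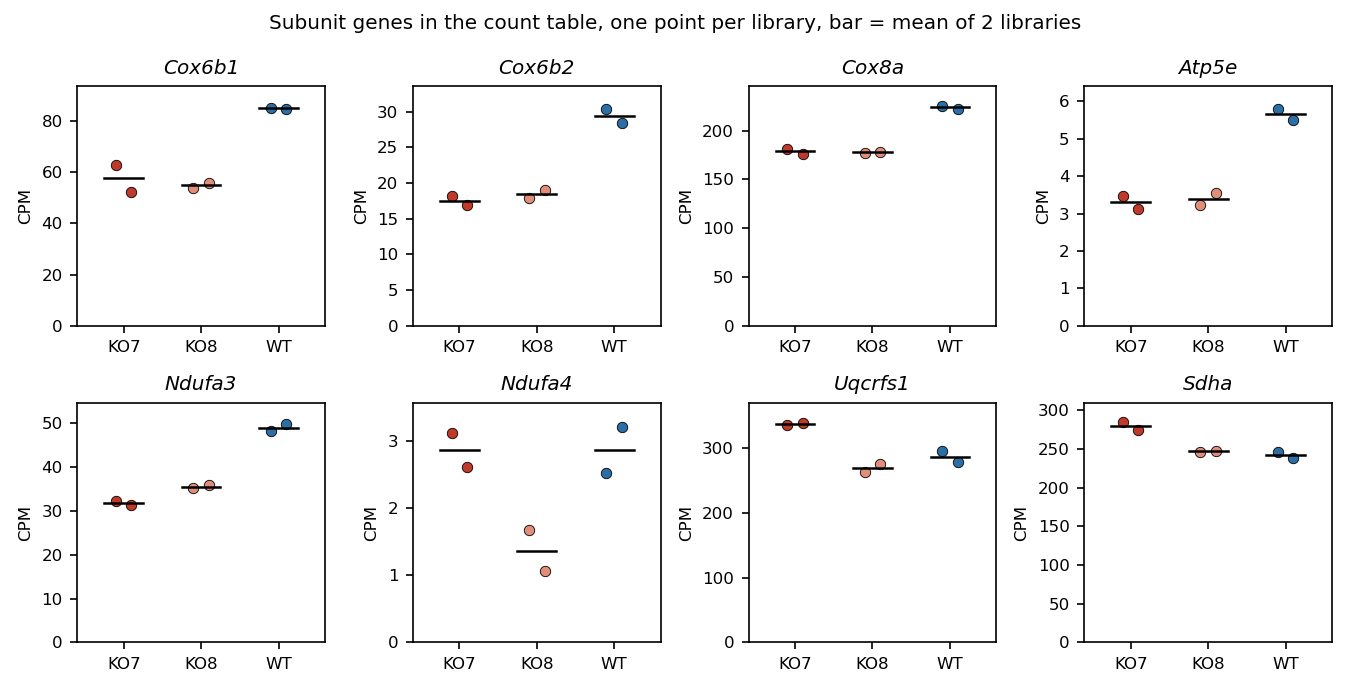
CPM (axes from 0) of 8 subunit genes in each untreated library of the count table, grouped as KO7, KO8 and WT, with bars at the mean of 2 libraries. All 4 HMCES-KO libraries lie below both WT libraries for Cox6b1, Cox6b2, Cox8a, Atp5e and Ndufa3, while Uqcrfs1 is highest in KO7 and Ndufa4 lowest in KO8.

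Some members differed between the knockout lines of the count table, a smaller share than of all genes. In KO7, 4 members rose and 12 fell against WT, with 38.2% of all genes called. In KO8 none rose and 21 fell, with 38.9% of all genes called and 19.7% called lower. Both lines were set against the same 2 WT libraries. Between the lines, 14 of 75 members (18.7%) were lower in KO8 than in KO7 and none was higher, with 28.2% of all genes called and 14.3% called lower. The median of the members was -0.11 for KO8 minus KO7. This median stayed below 0 under all 11 alternatives (-0.13 to -0.06), but the number of calls ran from 3 to 20 as each library was left out, with the fewest without KO8 library 2.

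Ndufa4 was first described in complex I and is now placed in complex IV, but is counted here under complex I by its symbol. It had 16 and 11 reads in KO8, 42 and 26 reads in KO7 and 30 and 32 reads in WT. Its log2 fold change was -1.10 ± 0.36 for KO8 minus KO7 (adjusted p = 0.026, edgeR) and -1.01 ± 0.37 for KO8 minus WT (adjusted p = 0.034). Both calls rest on few reads. The first was lost without any 1 of the 4 HMCES-KO libraries (adjusted p = 0.0501 to 0.257), and the second without any of them or without WT library 2 (adjusted p = 0.0518 to 0.276). The Rieske iron-sulfur protein Uqcrfs1, the catalytic subunit of complex III that meets cytochrome c1, had 336 and 340 CPM in KO7, 264 and 276 CPM in KO8 and 296 and 279 CPM in WT. It was higher in KO7 than in WT by 0.30 ± 0.05 on the log2 scale (adjusted p = 0.00017) and lower in KO8 than in KO7, with -0.34 ± 0.05 (adjusted p = 5.5e-05). Ndufa13, known also as GRIM-19, had 52.6 and 57.3 CPM in KO7 and 38.0 and 43.0 CPM in KO8, against 48.7 and 46.6 CPM in WT (KO8 minus KO7 -0.45 ± 0.09, adjusted p = 0.00066). Its exons overlap those of Tssk6 on the other strand over 29.6% of their length, and the count command in the file header sets no strand option, so reads of the pair cannot be told apart. Cox8c had 4 and 2 reads in KO8, 7 and 10 in KO7 and 11 and 13 in WT, and its call for KO8 minus WT (-1.78 ± 0.65, adjusted p = 0.035) was lost with any 1 of the 6 libraries left out (adjusted p = 0.0501 to 0.266).

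In the second set of untreated libraries the members did not move downward. Of 79 tested in the untreated TPM table, 6 rose and 5 fell with limma on log2(TPM + 1), which is 13.9% of them, against 16% of all 13314 genes. The median was 0.02 on the log2(TPM + 1) scale, against -0.06 over all genes. It fell on either side of 0 under the alternatives, from -0.0063 without HMCES-KO library 2 and -0.0053 without WT library 1 to 0.06 without WT library 2 and 0.08 with median-ratio scaling. Summed over the 83 members, TPM was 16698 and 17072 in HMCES-KO, against 15919.5 and 16238 in WT. In the count table the same sum was 17115 to 18586 in HMCES-KO, against 19258 and 19412 in WT. The sums thus lay on opposite sides of WT in the pair of untreated data sets.

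Atp5e had 163 and 166 TPM in HMCES-KO in this second set, from 234 and 204 reads, against 108 and 116 TPM from 148 and 155 reads in WT. It rose by 0.55 ± 0.05 (adjusted p = 0.0042, limma), whereas it fell in the count table. Ndufa9, an accessory subunit of complex I near the quinone site, had 267 and 295 TPM in HMCES-KO, against 207 and 221 TPM in WT (0.39 ± 0.06, adjusted p = 0.014), and it too fell in the count table (-0.32 ± 0.06). Its call was lost without WT library 1 (adjusted p = 0.0630). Ndufa4 had 56.2 and 58.3 TPM in HMCES-KO, against 38.3 and 30.4 TPM in WT (0.73 ± 0.11, adjusted p = 0.013). Cox4i1 had 1449 and 1381 TPM in HMCES-KO, against 1132 and 1145 TPM in WT (0.31 ± 0.03, adjusted p = 0.0055). Ndufb7, a membrane-arm subunit of complex I, had 387 and 413 TPM in HMCES-KO, against 325 and 319 TPM in WT (0.31 ± 0.04, adjusted p = 0.0098), a call lost without WT library 2 (adjusted p = 0.0556).

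Of the genes that fell in that table, Cox5b, a zinc-binding subunit of complex IV, had 27.3 and 25.4 TPM in HMCES-KO, against 41.9 and 42.9 TPM in WT (-0.66 ± 0.08, adjusted p = 0.0063, limma). Cox6b2 had 47.6 and 63.8 TPM in HMCES-KO, against 82.2 and 79.5 TPM in WT (-0.54 ± 0.13, adjusted p = 0.044), lower as in the count table, and the call was lost without either WT library (adjusted p = 0.134 and 0.112). Cox7c fell by 0.51 ± 0.11 (adjusted p = 0.029), and leaving out WT library 1 or 2 ended the call (adjusted p = 0.0626 and 0.119). Atp5md, a small ATP synthase subunit, had 2 and 3 reads in HMCES-KO, against 7 and 6 reads in WT, and its call (-1.04 ± 0.24, adjusted p = 0.038) was lost without WT library 1 (adjusted p = 0.154), WT library 2 (adjusted p = 0.112) or HMCES-KO library 1 (adjusted p = 0.0573). Without limma's trend in the spread, 1 member was called instead of 11, with 2.55% of all genes called in that fit, and edgeR on recovered reads called 15 higher and 4 lower, with 28.0% of all genes called. Among the 74 members tested in every data set, Cox6b2 was the only member called in the same direction in both untreated data sets, and Atp5e and Ndufa9 were called in opposite directions.

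**Figure D3:**
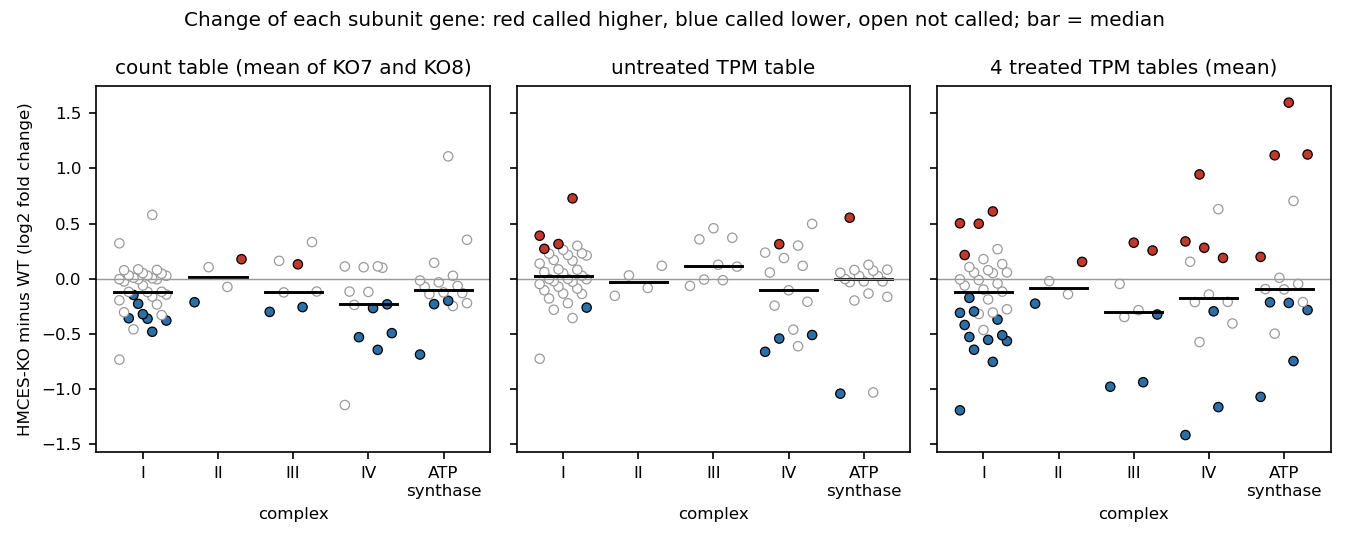
Log2 fold change of each member tested, HMCES-KO minus WT, by complex, in the count table, the untreated TPM table and the mean of the 4 treated tables (the TPM panels on the log2(TPM + 1) scale). Red points were called higher, blue points called lower and open points not called, with bars at the median of each complex; the treated tables show the widest spread, from -1.42 to 1.60.

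The largest differences were in the treated tables. Over the mean of the 4 tables, 15 members rose and 24 fell of 77 tested with limma on log2(TPM + 1), which is 50.6% of them, against 34.5% of all 12608 genes, with 20.7% of all genes called lower. The median of the members was -0.14, against -0.04 over all genes, and it was -0.07 with edgeR on recovered reads and -0.07 without HMCES-KO2 in LDN193189. Among genes under 1000 bases 43.2% were called, with a median of -0.01. All 8 HMCES-KO libraries lay below all 8 WT libraries for 9 of the 77 members, against 4.69% of all genes, and above them for 6, against 2.33% of all genes. Gene lengths behind these tables differ from those of the count table, so levels are not compared between untreated and treated tables. Each line enters this mean with 1 library per table, and these were treated as independent. Libraries of the same line deviated together between tables (correlations of 0.23 to 0.32). The SEs and p-values of this mean may therefore be too small. The 8 HMCES-KO libraries, also in the counts without overlap, come from 2 lines.

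Cox8a and Cox6a1, small subunits of complex IV in their widely expressed forms, had the lowest adjusted p-values of the family. Cox8a had a lowest, median and highest TPM of 741, 831 and 1227 in the 8 HMCES-KO libraries, against 2157, 2304 and 2450 in the 8 WT libraries, and the groups did not overlap. Behind these stood 749 to 1314 reads in HMCES-KO and 1755 to 2331 reads in WT. The log2 fold change was -1.42 ± 0.07 (adjusted p = 5.2e-08, limma) and between -1.11 and -1.57 in the single tables. Cox6a1 had 250, 296 and 324 TPM in HMCES-KO, against 558, 635 and 773 TPM in WT (-1.17 ± 0.06, adjusted p = 5.2e-08). Both were called in each of the 4 tables within the fit of all 16 libraries, also without any 1 of the libraries. Neither fell this far in untreated cells: Cox6a1 changed by -0.12 ± 0.11 in the count table and by 0.50 ± 0.15 in the untreated TPM table, without passing the test (adjusted p = 0.41 and 0.073). Cox8a changed by 0.19 ± 0.07 in the untreated TPM table (adjusted p = 0.14).

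These genes carried most of the change in complex IV as a whole. Summed TPM over the complex was 3627 to 3999 in the 8 HMCES-KO libraries, against 5288 to 6059 in the 8 WT libraries. In the activin A table the mean sum differed by -1822 TPM (HMCES-KO minus WT), and the sum of Cox8a and Cox6a1 alone by -1840 TPM. Without them, a sum chosen after the values were seen, HMCES-KO stood at 101% of WT in the activin A table, 88.6% in SB431542, 93.7% in BMP4 and 102% in LDN193189. The other subunits of complex IV thus showed no joint fall of that size. Cox6b1 was lower in all 8 HMCES-KO libraries (789 to 932 TPM, against 959 to 1174 TPM in WT), with a log2 fold change of -0.30 ± 0.04 (adjusted p = 0.00016, limma). Cox4i1 was higher by 0.19 ± 0.05 (adjusted p = 0.0095), with overlapping groups.

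**Figure D4:**
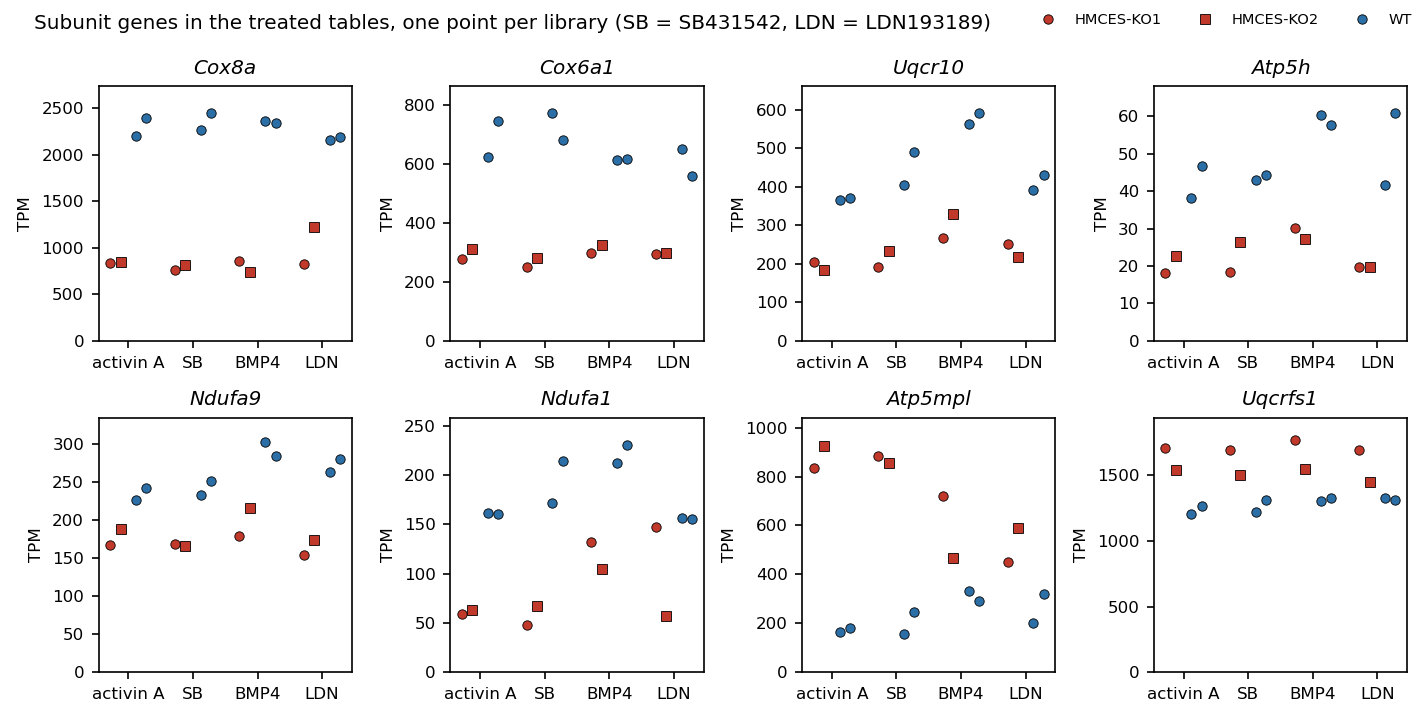
TPM (axes from 0) of 8 subunit genes in each library of the 4 treated tables, HMCES-KO left of WT within each treatment, circles for HMCES-KO1 and squares for HMCES-KO2. For Cox8a, Cox6a1, Uqcr10, Atp5h, Ndufa9 and Ndufa1 every HMCES-KO point is below every WT point over all tables, and for Atp5mpl and Uqcrfs1 every one is above.

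In complex III the members moved apart after treatment. Uqcr10 had 183, 227 and 328 TPM (lowest, median, highest) in HMCES-KO, against 365, 418 and 592 TPM in WT, and fell by 0.94 ± 0.07 (adjusted p = 8.0e-07, limma). It was called in each table, and without WT library 2 of the LDN193189 table the call there was lost (adjusted p = 0.101). Uqcrb, which helps hold the quinone site, fell by 0.98 ± 0.16 (adjusted p = 0.00045) on 5 to 14 reads in HMCES-KO, against 14 to 31 reads in WT, with overlap. Of the single tables it was called in SB431542 alone, and 62.8% of its mRNA has near copies. Uqcrfs1 rose instead, with 1453, 1623 and 1769 TPM in HMCES-KO, against 1206, 1308 and 1326 TPM in WT (0.33 ± 0.05, adjusted p = 0.00024). The core protein Uqcrc1 rose by 0.26 ± 0.05 (adjusted p = 0.00084), also without overlap, and the core protein Uqcrc2 fell by 0.33 ± 0.07 (adjusted p = 0.0033), with overlap. The summed TPM of complex III was 2942 to 3571 in HMCES-KO, against 2887 to 3334 in WT.

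Complex I is given as core and accessory subunits, a grouping made after the values were seen, and the difference between them was not tested. Over the treated tables, of 7 core subunits 3 rose and none fell, with a median of 0.11, and of 28 accessory subunits 1 rose and 12 fell, with a median of -0.29. In HMCES-KO2 alone 2 core subunits rose and 1 fell. In the untreated TPM table the calls ran the other way, with 1 core subunit lower and 4 accessory subunits higher, and the medians were -0.0057 and 0.05. Ndufa4, counted here as an accessory subunit by its symbol although now placed in complex IV, was 1 of these 4. Ndufs8, an iron-sulfur subunit, had 145, 161 and 192 TPM in HMCES-KO, against 96.4, 120 and 134 TPM in WT (0.50 ± 0.06, adjusted p = 2.8e-05, limma). Ndufv2, an iron-sulfur protein of the flavoprotein part, rose by 0.50 ± 0.06 (adjusted p = 5.7e-05), with overlapping groups. Ndufs3 rose by 0.61 ± 0.20 (adjusted p = 0.031) on 9 to 25 reads in HMCES-KO, against 0 to 16 reads in WT, also with overlap. It was not called in any single treated table, and 83.8% of its mRNA has near copies. Among accessory subunits, Ndufa1, a short membrane protein needed for assembly of the membrane arm, had 48.0, 65.3 and 148 TPM in HMCES-KO, against 156, 167 and 230 TPM in WT (-1.20 ± 0.15, adjusted p = 7.4e-05). The highest HMCES-KO value, from HMCES-KO1 in LDN193189, stood apart from HMCES-KO2 there at 57.1 TPM. Ndufa9 had 155, 171 and 216 TPM in HMCES-KO, against 226, 258 and 303 TPM in WT (-0.56 ± 0.05, adjusted p = 7.4e-06), and without WT library 2 of the LDN193189 table its call there was lost (adjusted p = 0.0749). Ndufa7 fell by 0.65 ± 0.11 (adjusted p = 0.00060). The untreated TPM table had Ndufa1 and Ndufa9 higher in HMCES-KO, the opposite direction. In the count table, also untreated, Ndufa9 fell as it did after treatment, and Ndufa1 changed by -0.12 ± 0.12 (adjusted p = 0.44, edgeR).

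ATP synthase held the largest rise of the family. Atp5mpl, a small proteolipid of the membrane part, had 452, 779 and 925 TPM in HMCES-KO, against 157, 225 and 331 TPM in WT, from 320 to 659 reads and 104 to 194 reads. The log2 fold change was 1.60 ± 0.12 (adjusted p = 1.4e-06, limma). It was 2.34 ± 0.24 in activin A, 2.14 ± 0.24 in SB431542, 0.90 ± 0.24 in BMP4 and 1.02 ± 0.24 in LDN193189. The first pair of calls held without any 1 library. The calls in BMP4 (adjusted p = 0.046) and in LDN193189 (adjusted p = 0.048) were not stable: the first was lost without either WT library or HMCES-KO library 1 of BMP4, without any activin A library or without either SB431542 HMCES-KO library, and the second without any LDN193189 or activin A library, either SB431542 HMCES-KO library or either BMP4 WT library (adjusted p = 0.0581 to 0.305). In untreated cells it changed by -0.13 ± 0.13 in the count table and by 0.13 ± 0.07 in the untreated TPM table, neither past the test (adjusted p = 0.46 and 0.25). Atp5l, the g subunit, rose by 1.12 ± 0.19 (adjusted p = 0.00068) on 18 to 28 reads in HMCES-KO, against 4 to 15 reads in WT, and 72.2% of its mRNA has near copies.

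The d subunit of the peripheral stalk, Atp5h, had 18.2, 21.3 and 30.0 TPM in HMCES-KO, against 38.0, 45.6 and 60.9 TPM in WT, from 45 to 86 reads and 91 to 142 reads. It fell by 1.07 ± 0.10 (adjusted p = 7.2e-06, limma), and 77.6% of its mRNA has near copies, so its reads are uncertain. It was called in each table; the call was lost without WT library 2 or HMCES-KO library 1 in activin A, without either WT library or HMCES-KO library 1 in SB431542, without either WT library or HMCES-KO library 2 in BMP4 and without WT library 2 in LDN193189 (adjusted p = 0.0578 to 0.0963). The gamma subunit Atp5c1, the rotating shaft, had 82.5, 104 and 135 TPM in HMCES-KO, against 162, 177 and 198 TPM in WT (-0.75 ± 0.06, adjusted p = 1.5e-06). Unlike these, the catalytic Atp5b fell by 0.22 ± 0.04 and the alpha subunit Atp5a1 rose by 0.20 ± 0.04 (adjusted p = 0.0015 and 0.0014), both with overlapping groups.

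The c ring subunit is made from 3 genes with the same mature protein. Atp5g3 was the most abundant, at 437, 516 and 585 TPM in HMCES-KO, against 541, 633 and 731 TPM in WT, and fell by 0.29 ± 0.05 (adjusted p = 0.00042, limma). Atp5g1 had 4.97, 10.2 and 15.95 TPM in HMCES-KO, from 45 to 152 reads, against 3.16, 3.74 and 4.64 TPM in WT, from 27 to 39 reads, and rose by 1.13 ± 0.20 (adjusted p = 0.00075). Near copies cover 59.5% of its mRNA. Atp5g2 changed by 0.01 ± 0.19 (adjusted p = 0.98). None of the 3 was called in untreated cells, where Atp5g1 changed by -0.08 ± 0.23 in the count table and -0.14 ± 0.19 in the untreated TPM table (adjusted p = 0.82 and 0.67).

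In complex II 2 of the 4 genes were called after treatment, in opposite directions. Sdha fell by 0.23 ± 0.06 and Sdhd rose by 0.15 ± 0.05 (adjusted p = 0.0087 and 0.026, limma), both with overlapping groups. Sdha had 65.1, 72.1 and 76.4 TPM in HMCES-KO, against 70.8, 82.7 and 99.7 TPM in WT, the opposite direction to the count table. Sdhb and Sdhc changed by -0.02 ± 0.10 and -0.14 ± 0.06 (adjusted p = 0.89 and 0.10). Summed TPM of the 4 genes was 771 to 959 in HMCES-KO, against 779 to 897 in WT.

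**Figure D5:**
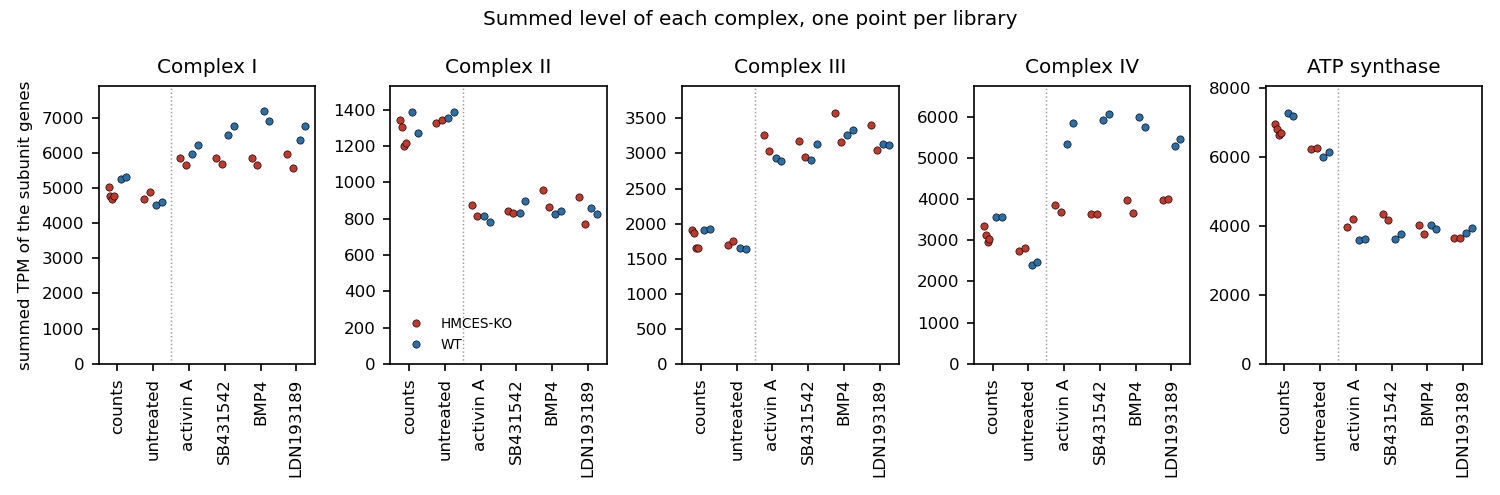
Summed TPM of the members of each complex in every library (axes from 0), HMCES-KO left of WT within each table, with a dotted line between untreated and treated tables, whose levels are not comparable. For complex IV all 8 treated HMCES-KO libraries (3627 to 3999) lie below the 8 treated WT libraries (5288 to 6059). The groups overlap for the other 4, but for complex I only narrowly (5579 to 5977 in HMCES-KO, 5972 to 7181 in WT). For ATP synthase HMCES-KO ran from 3656 to 4339 and WT from 3604 to 4026. Summed over all members (not drawn), treated HMCES-KO libraries (17064 to 18396) lay below treated WT libraries (18661.5 to 21279).

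The isoforms restricted to other tissues were low, apart from Cox6b2. Cox6a2, Cox7a1 and Cox8b, known from heart and skeletal muscle, had at most 5.52 TPM in any untreated library, and Cox6a2 had no read in the 6 untreated HMCES-KO libraries. Cox7a1 was listed at 0 to 6.19 TPM in HMCES-KO, against 0 to 14.5 TPM in WT, in the 3 treated tables that hold it. Cox7b2 stood at 0 to 6.57 TPM in the 8 treated HMCES-KO libraries, from at most 7 reads, against 0 to 3.45 TPM in WT, from at most 3 reads. It was called higher over the mean of the tables (0.95 ± 0.33, adjusted p = 0.042, limma) with overlapping groups. Cox8c had 1.24 to 7.78 TPM in treated HMCES-KO, against 0 to 7.55 TPM in WT, and was not called (adjusted p = 0.35). Cox6b2 had 42.9, 89.5 and 107 TPM in treated HMCES-KO, against 44.1, 64.8 and 99.5 TPM in WT, and rose by 0.34 ± 0.11 (adjusted p = 0.035) with overlapping groups, the opposite of both untreated data sets.

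Between treatments no member passed the adjusted test, with 2 libraries in each group. None was called for activin A minus SB431542 or for BMP4 minus LDN193189, in HMCES-KO or in WT, nor for the difference of these effects between HMCES-KO and WT, either with limma or with edgeR on recovered reads. Of all genes, limma called 0.103% and 0.0159% for activin A minus SB431542 in HMCES-KO and WT, 0.0238% and 0.0317% for BMP4 minus LDN193189, and 0% in both differences of effects. At an unadjusted p under 0.05 stood 6 of 77 members for activin A minus SB431542 in HMCES-KO (7.79%, against 4.91% of all genes) and 3 in WT (3.90%, against 3.53%). For BMP4 minus LDN193189 there were 7 in HMCES-KO (9.09%, against 4.6%) and 7 in WT (9.09%, against 4.48%). The difference of effects between HMCES-KO and WT had 9 for activin A minus SB431542 (11.7%, against 3.78%) and 6 for BMP4 minus LDN193189 (7.79%, against 4.95%). Each member share rests on 3 to 9 members, and for activin A minus SB431542 in WT it was near that of all genes. The differences of effects reuse the libraries of the other comparisons. No member had an adjusted call, and whether the shares differ from those of all genes was not tested. Treatment and table are the same split, so a treatment effect and a table effect cannot be told apart. The largest change for activin A minus SB431542 was in Ndufa12 in HMCES-KO, at 1.77 ± 0.49, and it was not called (adjusted p = 0.59); in WT it was in Atp5md at -1.48 ± 0.84 (adjusted p = 1.0). The largest for BMP4 minus LDN193189 were in Cox7b2, at -1.22 ± 0.66 in HMCES-KO and 1.57 ± 0.66 in WT, neither called (adjusted p = 1.0 each).

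The difference between genotypes was called for a different number of members in each table. In activin A 6 rose and 10 fell, with 12.1% of all genes called. In SB431542 5 rose and 14 fell, with 12.1% of all genes called, and in BMP4 5 rose and 13 fell, with 6.33% of all genes called. In LDN193189 1 rose and 7 fell, with 2.29% of all genes called. With each line as a replicate block, which pairs the HMCES-KO libraries, 6 rose and 14 fell there, with 5.58% of all genes called. Cox8a, Cox6a1, Uqcr10, Atp5h and Ndufa9 fell in all 4 tables, and Atp5mpl rose in all 4. Ndufv2 rose in 3 tables and Atp5c1 fell in 3. No member was called in both directions. The WT libraries of one table are not used in another, but the lines are the same.

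Each knockout line of the treated tables was also set against WT, with the same 8 WT libraries for both, a comparison added after the data were seen. In HMCES-KO1 13 members rose and 21 fell, with 32.7% of all genes called, and in HMCES-KO2 9 rose and 22 fell, with 28.9% of all genes called. Cox8a changed by -1.48 ± 0.09 in HMCES-KO1 and by -1.36 ± 0.09 in HMCES-KO2. Between the lines, 2 members were called, with 6.58% of all genes called. Ndufa13 was lower in HMCES-KO2 than in HMCES-KO1 by 0.27 ± 0.06 on the log2 scale (adjusted p = 0.016, limma) and Uqcrfs1 by 0.18 ± 0.05 (adjusted p = 0.029). Ndufa13 had 249 to 294 TPM in HMCES-KO2, against 286 to 384 TPM in HMCES-KO1. Uqcrfs1 had 1453 to 1552 TPM in HMCES-KO2, against 1693 to 1769 TPM in HMCES-KO1. The call of Uqcrfs1 was lost without any 1 of 7 of the 8 HMCES-KO libraries, all but HMCES-KO2 in activin A (adjusted p = 0.0526 to 0.0856). Ndufa13 and Uqcrfs1 were also among the 14 members lower in KO8 than in KO7 in the count table. Which of HMCES-KO1 and HMCES-KO2 is KO8 is not stated, so whether the same line was lower is unknown. Reads of Ndufa13 and Tssk6 cannot be told apart in the count table.

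Between data sets the calls overlapped in part. Of the 74 members tested in all of them, 19 were called in the count table and 37 over the treated tables, with 9 called in the same direction and 4 in opposite directions (Ndufa5, Cox6b2, Sdha and Cox7a2). Between the untreated TPM table, with 10 called, and the treated tables, Cox4i1 was called in the same direction and Atp5e, Ndufa9, Cox6b2 and Ndufa1 in opposite ones. The libraries of the data sets are separate, and treatment, depth and table cannot be told apart between them.

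Genes that serve the same chain did not share 1 pattern. Of all genes, 40.6% were called in the count table and 34.5% over the treated tables, with 20.8% and 20.7% called lower. Whether the sets below differ from these shares was not tested. Of the assembly factors of complex IV, which insert its metals and join its parts, 1 rose and 2 fell of 18 tested in the count table, and 5 rose and 3 fell of 21 over the treated tables. Of those of complex I, 1 rose and 1 fell of 16 in the count table, and 3 rose and 1 fell over the treated tables. Of 14 genes of cytochrome c and quinone synthesis 1 fell in the counts and 2 fell over the treated tables, with none higher in either. Of 77 mitochondrial ribosomal proteins, which build the machine that translates the mitochondrial subunits, 12 rose and 11 fell in the count table, and 14 rose and 21 fell of 76 over the treated tables. Of 13 genes of the TCA cycle, which feeds the chain, 2 rose and 5 fell in the count table, and 3 rose and 5 fell over the treated tables.

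Most genes in a list of glycolytic enzymes and genes of pyruvate use were lower in the count table and over the treated tables, but not in untreated TPM. Of 24 such genes 17 fell and 1 rose in the count table, with a median of -0.45, where 20.8% of all genes were called lower. After treatment 14 fell and none rose, with a median of -0.35, where 20.7% of all genes were called lower. In untreated TPM, 1 gene rose and 2 fell, with a median of -0.08, and their summed level was 4880 and 5179 TPM in HMCES-KO, against 4876 and 5003 TPM in WT. Whether these genes differ from the subunits was not tested. The lactate carrier Slc16a3 changed by -0.93 ± 0.08 in the count table (adjusted p = 4.2e-08, edgeR) and by -0.44 ± 0.07 over the treated tables (adjusted p = 0.00031, limma). The enzyme Tpi1 changed by -0.87 ± 0.07 in the count table (adjusted p = 2.1e-08). In the count table, paralogs of subunits that the symbol rule does not take included the largest fall of the chain. There Ndufa4l2 changed by -3.02 ± 0.22 (adjusted p = 2.4e-09, edgeR) and Cox4i2 by -1.81 ± 0.30 (adjusted p = 7.2e-05). The subunits outside the symbol rule summed to 82.3% of WT in the count table and to 99.7% in untreated TPM. Cox4i2 was also lower over the treated tables, with -1.04 ± 0.15 (adjusted p = 0.00020).

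Some markers of other cell types were called between genotypes, and their calls and summed levels did not always point the same way. Of all genes, 40.6% were called in the count table (20.8% lower), 34.5% over the treated tables (20.7% lower) and 16% in untreated TPM. Of 13 endoderm markers tested in the counts 12 fell and 1 rose, with a median of -1.74, and none of the 15 listed was at 0. Their summed level was 1350 to 1431 TPM in HMCES-KO, against 1478 to 1497 TPM in WT. After treatment, 6 of 13 fell and 1 rose, and the summed level was 3387 to 4235 TPM in HMCES-KO, against 2520 to 3199 TPM in WT. In untreated TPM, 3 of 11 fell and 1 rose. Of 4 fibroblast markers tested in the counts, 3 fell and 1 rose, and 2 of the 9 listed were at 0. Their summed level went the other way, at 345 to 597 TPM in HMCES-KO, against 343 and 390.0 TPM in WT. It was 529 and 546 TPM in HMCES-KO, against 447 and 457 TPM in WT, in untreated TPM, and 626 to 885 TPM in HMCES-KO, against 534 to 664 TPM in WT, after treatment. The trophectoderm markers summed to 126% of WT in the count table, 81.8% in untreated TPM and 73.6% to 115% in the treated tables, and the muscle markers to 51.5%, 102% and 58.1% to 96.2%. The part of such cells in the changes of the subunits was not tested, and in these bulk libraries fewer cells of a type and less RNA per cell cannot be told apart.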

How the data were processed

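RNA-seq libraries of HMCES-KO and WT cells were deposited as 1 table of gene counts (6 libraries, whole-number counts made by the authors) and 5 tables of TPM (20 libraries, deposited as normalized by the authors). The submitters' processing notes name FastQC 0.11.5, Bowtie2 2.3.3, SAMtools 1.9, featureCounts 2.0.1, DESeq2 and the build mm10; the command in the count table's file header counts read pairs over exons with no option for strand or for reads on several genes, and for the TPM tables these settings are not stated. The members and gene lists were chosen with earlier results of these data known.

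Counts were tested with edgeR 4.0.16 (TMM, filterByExpr, quasi-likelihood test, groups KO7, KO8 and WT), in R 4.3.3. TPM values were tested with limma 3.58.1 (trended) on log2(TPM + 1), keeping genes at 1 TPM or more in at least 2 libraries. The untreated TPM table was fitted alone. The 16 treated libraries were fitted as 8 groups on the genes common to the 4 tables, rescaled to a sum of 1000000. Lines were compared in a fit with treatment and source. The p-values were adjusted by Benjamini-Hochberg over all genes tested, with a threshold of 0.05. Fold changes on the log2(TPM + 1) scale understate changes of low genes. Whole reads were recovered from 100% of TPM values (within 0.01 reads, for 12927 of 12928 genes in the treated tables), which gave the read numbers and a count test that called 3587 genes in untreated and 4535 over the treated tables. Depth limits the precision of low genes, and read numbers carry counting error besides the spread shown.

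Near copies were found with blastn 2.17.0. Same-numbered HMCES-KO libraries of the treated tables deviated together (correlations of 0.23 to 0.32 in all 6 pairs of tables), as the labels give 1 line per number; WT libraries did not (-0.02 to 0.01), nor did the count libraries (-0.02 to 0.00). Named members are those called without overlap between groups, up to 3 in each direction per complex and comparison, plus complex II, the tissue-restricted isoforms and the subunit c genes. Other genes were named after their values were seen. Counts cover all members, but values of some are not reported here. The tests were tried on simulated data with known changes. Alternatives were another normalization, DESeq2 1.42.0, other filters and pseudocounts, limma without trend, the replicate block, single tables and each library left out.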

Additional observations from a re-analysis of the deposited data

Results flagged for a closer look

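Between the knockout lines of the count table, 14 members were lower in KO8 than in KO7 by a test of that difference (edgeR, adjusted p under 0.05). Among them, the log2 fold changes were -1.10 for Ndufa4, -0.45 for Ndufa13, -0.43 for Cox7a2, -0.41 for Ndufb11, -0.35 for Cox5a, -0.34 for Uqcrfs1, -0.33 for Ndufa6 and -0.27 for Ndufb8. They were -0.22 for Uqcrc1, -0.22 for Uqcrq, -0.20 for Sdha, -0.18 for Cox4i1 and -0.17 for Sdhc. In the treated tables, HMCES-KO2 was lower than HMCES-KO1 for Ndufa13 (-0.27) and Uqcrfs1 (-0.18), by the test of that difference.

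Ndufa9 and Ndufa1 were higher in every HMCES-KO library than in every WT library of the untreated TPM table and lower in every one over the treated tables, where the log2 fold changes were -0.56 and -1.20; the difference between the data sets was not tested. In the count table, also untreated, Ndufa9 fell by 0.32. Atp5pb had 108 CPM in KO7 library 1, apart from the other HMCES-KO libraries of the count table. This was 1 of 29 values examined for a library standing apart, and chance gives about 1 in 20.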

How the results depend on the processing

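No called change of a named member changed sign under the alternatives tried. The members' median log2 fold change crossed 0 for the untreated TPM table (-0.0063 to 0.08), KO7 minus WT (-0.05 to 0.01), activin A (-0.03 to 0.02), LDN193189 (-0.21 to 0.01) and HMCES-KO1 minus WT (-0.12 to 0.00022), and for 4 of the 6 treatment comparisons. The number of members called over the mean of the treated tables ran from 33 to 40 as each library was left out, against 39 with all of them. The other ranges were 15 to 23 for the count table's mean of lines, 12 to 25 for KO7, 13 to 23 for KO8, 3 to 20 for KO8 minus KO7, 6 to 25 for the untreated TPM table, 6 to 18 in activin A, 8 to 26 in SB431542, 7 to 25 in BMP4 and 2 to 12 in LDN193189. They were 0 to 3 for HMCES-KO2 minus HMCES-KO1, 30 to 35 for HMCES-KO1, 27 to 34 for HMCES-KO2, 0 to 1 for BMP4 minus LDN193189 in HMCES-KO and 0 to 0 for the other treatment comparisons. With the HMCES-KO libraries as 1 group 7 members were called in the count table, with 11.5% of all genes called. DESeq2 called 8 for KO8 minus KO7, with 17.8% of all genes called. The untreated TPM table gave 6 calls with no filter, 1 without trend and 19 with edgeR on recovered reads. The shares of all genes there were 7.41%, 2.55% and 28.0%. Without trend there were 10 calls in activin A, 11 in BMP4, 4 in LDN193189 and 0 between the treated lines. The shares of all genes there were 9.07%, 3.51%, 0.682% and 4.91%. Tables fitted alone gave 4 calls in BMP4 and 0 in LDN193189, with 0.342% and 0.00834% of all genes called. With the replicate block, 20 members were called in LDN193189, against 8 without it, with 5.58% and 2.29% of all genes called. Atp5md was among the members that lost their calls in the untreated TPM table with the block (adjusted p = 0.0506, limma). Among the counts of members called the block moved no other by over 1.5 times. The cause of these changes was not tested. Genes with fewer than about 20 reads in a library are limited by depth.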
